A study of Homo sapiens with 6 samples.

Results

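The 10 genes described here encode amino acid sensors and brakes of mTORC1, together with the kinase itself: SESN1, SESN2, SESN3, DDIT4, RRAGC, RRAGD, DEPTOR, EIF4EBP1, EIF4EBP2 and MTOR. They were picked by gene name, each matched exactly 1 row, and they are 10 of the 19491 genes in the tables. RNA was sequenced from PC-3, a human prostate cancer cell line, in 3 groups, each harvested after 48 h: untreated cells (the control), cells given GPNA and cells given BenSer. Both compounds are amino acid analogues that compete for ASCT2 (SLC1A5), the sodium-dependent carrier of glutamine and other small neutral amino acids, and the series asked what each does to transcripts genome-wide. The study adds that, in oocytes, BenSer also inhibits the leucine exchanger LAT1 (SLC7A5). In PC-3 cells the study reports lower leucine uptake with BenSer. It also reports less phosphorylated p70S6K, a target of mTORC1, in these cells with either compound after a shorter exposure. From the study's text, the doses were 1 mM GPNA and 10 mM BenSer, both in water. All groups grew in RPMI medium with fetal bovine serum and pyruvate, and all represent the same single cell line.

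mTORC1 is a kinase complex at the lysosomal surface that drives protein synthesis when amino acids and growth factor signals are both present. Among the sestrins, SESN1 and SESN2 report leucine supply, and when it is low they bind GATOR2. GATOR1 then switches off the Rag GTPases that hold mTORC1 at the lysosome. DDIT4 (REDD1) brakes the complex by another route, through TSC1 and TSC2, which silence the activator RHEB. DEPTOR binds the kinase and inhibits it, whereas the 4E-BP proteins act below it, holding the cap-binding factor eIF4E until mTORC1 phosphorylates them. Several of these brakes are themselves targets of stress-responsive transcription factors: SESN2 and DDIT4 of ATF4, SESN3 of FOXO factors, and RRAGC and RRAGD of the TFEB and TFE3 family.

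SESN2 had more transcript with both inhibitors, DDIT4 had more with BenSer and a smaller excess with GPNA, and RRAGC, EIF4EBP2 and MTOR stayed within 0.11 of the control on the log2 scale, while RRAGD had too few reads to show a small change. Between these lay SESN1, SESN3, DEPTOR and EIF4EBP1, whose means were all above the control with both compounds and by less than 1.5-fold, although the sign of SESN1 with GPNA turned without control library 2 (-0.06) or GPNA library 2 (-0.02). Levels are reads scaled to 1000000 reads per library (CPM). A difference is that of log2(mean CPM + 1), which understates the change of low genes, and a gene counted as higher or lower when it passed 1.5-fold on that scale (0.585 on the log2 scale). A fold is the ratio of the mean CPM values.

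The tables hold 4 value columns per group, and the study treated these as replicates. The 2 columns per group that match a labelled sample were used here, as libraries of 23077986 to 32178154 reads. Within a group the 2 libraries scarcely differed beyond counting noise (chi-square 1.04 to 1.06 times its degrees of freedom, whereas libraries of different groups gave 5.33 to 20.6), an excess over noise that was small but detectable over 15623 or more genes. Each pair was taken as 1 sample, so no p-value for a treatment is given, and the 95% intervals (exact Clopper-Pearson on the merged reads) cover counting error only. Spread between cultures cannot be told apart from a treatment effect. In RNA from bulk cultures, more transcript per cell and more cells with the transcript cannot be told apart either. The epithelial and PC-3 markers KRT7, KRT8, KRT18, EPCAM, CDH1, VIM and CD44 were all present, and KLK3 was not among the listed genes. Of 10 markers of other cell types, 3 were listed, and of these COL1A1 had at most 5.57 CPM, COL3A1 1.22 and ACTA2 0.642 in any group. None of these markers passed 1.5-fold with either compound. COL1A1 stood at -0.48 on the log2 scale with GPNA (a ratio of mean CPM of 0.669) and at -0.27 with BenSer, both with intervals below 0. With BenSer, CDH1 differed by 0.49 on the log2 scale, KRT7 by 0.24 and VIM by -0.38. KRT18 (-0.24) and KRT8 (-0.07) also lay below the control, while EPCAM (0.01) and CD44 (0.02) had intervals across 0. With GPNA, KRT8 (-0.20), KRT7 (-0.18), KRT18 (-0.15), EPCAM (-0.08) and CD44 (-0.04) lay below the control and CDH1 above it (0.08). VIM with GPNA (-0.03) had an interval across 0. The part of these differences in the results was not tested.

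**Figure D1:**
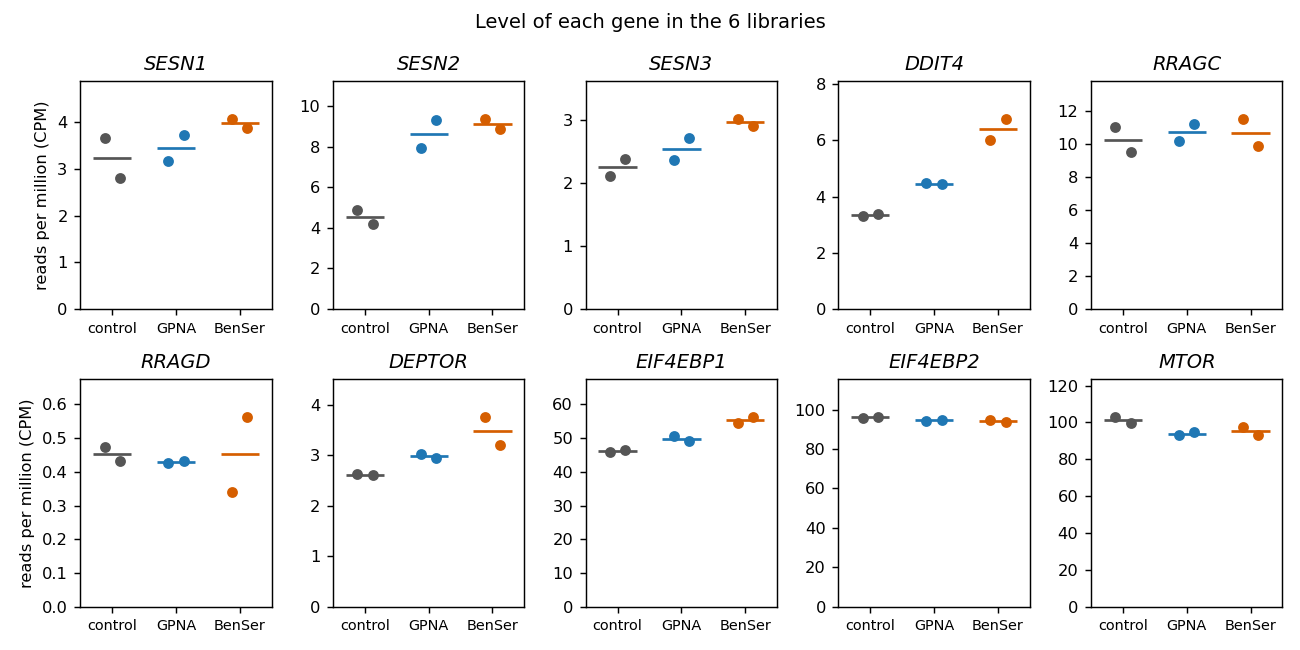
CPM of each gene (y axis, starting at 0, with its own scale per panel) in the libraries of the control, GPNA and BenSer groups; points are libraries and lines are group means. Both SESN2 points of each treated group lie above both control points, the DDIT4 points climb from control to GPNA to BenSer, and the EIF4EBP2 and MTOR points stay nearly level.

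The genes differed widely in level. Per kilobase of annotated exon, control cells had most EIF4EBP1 transcript (52.4 CPM per kb), followed by EIF4EBP2 (12.8), MTOR (7.58), RRAGC (2.01), DDIT4 (1.63), SESN2 (1.31), DEPTOR (0.995), SESN1 (0.445), SESN3 (0.212) and RRAGD (0.0890). Neighbours from RRAGC to DEPTOR had overlapping counting intervals, and all other neighbours were apart. SESN2 was thus the most abundant sestrin in untreated cells, and EIF4EBP1 was far ahead of the other repressor.

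Treatment changed that order in the middle of the list and nowhere else. With GPNA, SESN2 reached 2.49 CPM per kb (2.26 to 2.73) and DDIT4 2.17 (1.90 to 2.47), both past RRAGC at 2.09 (1.92 to 2.28), although these 3 neighbours overlapped. With BenSer, DDIT4 had rank 4 at 3.11 CPM per kb (2.81 to 3.42) and SESN2 rank 5 at 2.63 (2.42 to 2.85), which overlapped each other and were both clear of RRAGC at 2.09 (1.94 to 2.26). The lengths are those of all annotated exons merged, so the order would shift if PC-3 cells use only short transcripts.

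Counted over the 10 genes, 1 was at least 1.5-fold higher with GPNA (SESN2), where 0.34% of 18828 tested genes were, and 0.404% were in either direction. With BenSer, 2 were (SESN2 and DDIT4), where 1.96% of 18976 tested genes were, and 3.54% were in either direction. No member was at least 1.5-fold lower with either compound (RRAGD, below 1 CPM, could not have been with a pseudocount of 1 CPM), and the corresponding shares of all genes were 0.0637% and 1.58%. All 10 genes passed the minimum of 5 reads per library on average in at least 1 of the groups compared.

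By the weaker criterion of a counting interval above 0, 3 of 10 genes were higher with GPNA (SESN2, DDIT4 and EIF4EBP1), where 9.78% of all genes were. The same held for 5 of 10 with BenSer (those 3 plus SESN3 and DEPTOR), where 18.2% of all genes were. MTOR alone had an interval below 0, in both comparisons, against 20.1% and 25.8% of all genes. Over the 10 genes, GPNA gave a median log2 difference of 0.09 and BenSer of 0.25, beside -0.03 in both comparisons over all genes. The GPNA median was 0.02 without GPNA library 2 and 0.05 without control library 2. The comparisons share the control libraries, so the recurrence of a gene in both is not independent.

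**Figure D2:**
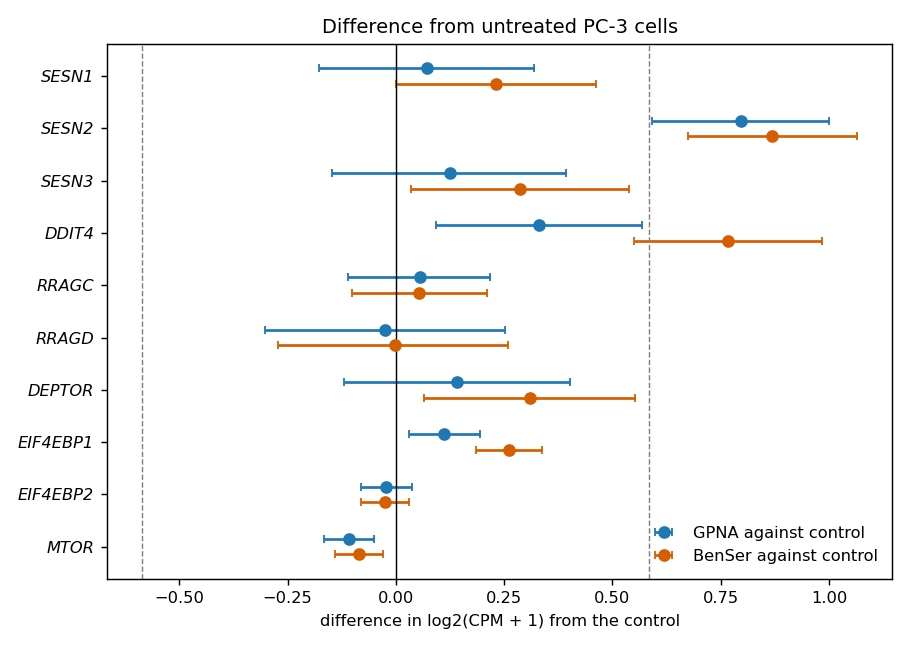
Difference in log2(CPM + 1) from the control (x axis) for each gene with GPNA (blue) and BenSer (orange); bars are 95% counting intervals and dashed lines mark 1.5-fold. SESN2 lies past the line with both compounds (0.80 and 0.87), DDIT4 with BenSer (0.77), and MTOR lies left of 0 with both.

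Among the sestrins, SESN2 moved most. The control libraries had 4.86 and 4.20 CPM, the GPNA libraries 7.91 and 9.31, and the BenSer libraries 9.35 and 8.86. All 4 treated libraries stood above both controls, while the treated groups overlapped each other. How many of all genes had libraries apart in this way was not counted, here or below. The excess was 1.90-fold with GPNA (95% interval 1.61 to 2.25, a log2 difference of 0.80) and 2.01-fold with BenSer (1.71 to 2.36, log2 0.87). These placed SESN2 at the 99.9th percentile of all tested genes with GPNA and the 99.3rd with BenSer. The values rest on 210, 441 and 584 reads in the control, GPNA and BenSer groups. Both calls were lost with a pseudocount of 5 CPM, and that with GPNA also under limma with libraries as replicates.

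Since SESN2 is an ATF4 target, the letters of the C/EBP-ATF response element, TGATGNAA on either strand, were looked for upstream. The RefSeq promoter windows (GRCh38.p14, 250 bases before to 50 after the start) covered 7 of the 8 members searched. None of the 7 held TGATGNAA, which 3.62% of 35116 such windows did. A wider window of 2000 bases before the annotated start (GRCh37, the build of the tables) was chosen after that result, and after an exploratory look at a longer stretch with further motifs, and was read for the 8 members shown in the plot of motif positions (the other 2 were not analysed here). It held TGATGNAA in SESN2 and DDIT4 and in none of the other 6. As 25.8% of 20162 protein-coding genes have a match in such a window, a match is common. The share among the 8 members was near that of all these genes.

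The SESN2 match is shown because this gene was higher with both compounds. SESN2 (ENSG00000130766) spans chr1:28586029-28609002 on the plus strand, and its match begins 296 bases before the start, outside annotated genes, at chr1:28585708-28585765 with flanks. Capitals mark the match, which reads as TGATGNAA on the opposite strand.
SESN2: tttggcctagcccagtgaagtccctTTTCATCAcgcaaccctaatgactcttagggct

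SESN1 (ENSG00000080546, chr6:109305512-109416049, minus strand) and SESN3 (ENSG00000149212, chr11:94898677-94965705, minus strand) stayed short of 1.5-fold. SESN1 had 3.66 and 2.82 CPM in untreated cells, 3.18 and 3.73 after GPNA, and 4.07 and 3.88 after BenSer, so that GPNA overlapped the control and both BenSer libraries lay above it. Its fold was 1.07 with GPNA (0.853 to 1.33), and with BenSer 1.23, with an interval that reached 1.00. That BenSer difference of 0.23 on the log2 scale became 0.38 without control library 1 and 0.09 without control library 2. SESN3 had 2.11 and 2.38 CPM in untreated cells, 2.36 and 2.71 after GPNA, and 3.01 and 2.91 after BenSer. With BenSer its excess was 1.32-fold (1.03 to 1.69), and with GPNA 1.13-fold (0.866 to 1.48), an interval that includes no change. Part of each gene lies opposite a long noncoding RNA: 363 exonic bases in SESN1 and 98 in SESN3, where LNCRNA-IUR overlaps. The strand setting of the counting is not given in the sources used here.

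The balance among sestrins can be read without any scaling between libraries, as a share of their joint reads, a measure added after the levels were seen. SESN2 made up 45.3% of sestrin reads in the control (exact binomial 95% interval 40.7 to 49.9, 210 of 464 reads). That share was 59% with GPNA (55.3 to 62.5, 441 of 748) and 56.8% with BenSer (53.7 to 59.8, 584 of 1029). The control interval was clear of both treated intervals, which overlapped each other.

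DDIT4, the brake that works through the TSC complex, was higher with each compound and most with BenSer. The control libraries had 3.32 and 3.38 CPM, the GPNA libraries 4.50 and 4.44, and the BenSer libraries 6.03 and 6.76. None of the 3 groups overlapped, a separation that, as for SESN2, has no share of all genes beside it. The excess was 1.91-fold with BenSer (1.58 to 2.31, log2 0.77), at the 99.0th percentile of all tested genes. With GPNA it was 1.33-fold (1.08 to 1.65, log2 0.33), short of 1.5-fold. The values rest on 155, 229 and 410 reads, and the BenSer call was lost with a pseudocount of 5 CPM.

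DDIT4 (ENSG00000168209) spans chr10:74033678-74035794 on the plus strand. Its 2000-base upstream window held 4 matches to TGATGNAA, shown as 3 stretches at chr10:74032484-74032562, chr10:74032649-74032706 and chr10:74032711-74032768. All 3 overlap an exon of the annotated gene ENSG00000289506. Capitals mark the matches, and the second match of the first stretch lies on the opposite strand.
DDIT4 stretch 1: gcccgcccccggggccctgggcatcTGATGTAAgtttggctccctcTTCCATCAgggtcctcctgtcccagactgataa
DDIT4 stretch 2: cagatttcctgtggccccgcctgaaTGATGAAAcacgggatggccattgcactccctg
DDIT4 stretch 3: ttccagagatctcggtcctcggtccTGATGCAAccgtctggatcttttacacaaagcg
The matches begin 1169, 1148, 1004 and 942 bases before the start of DDIT4, farther out than that of SESN2.

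**Figure D3:**
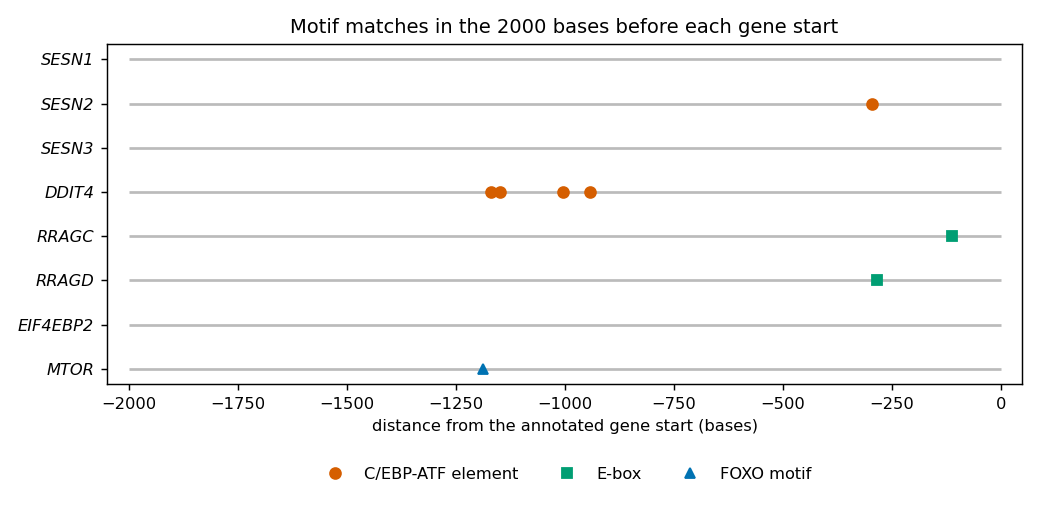
Matches to TGATGNAA (circles), the E-box CACGTG (squares) and the FOXO motif GTAAACA (triangle) by distance in bases from the annotated start of 8 genes (x axis); each grey line is 1 upstream window of 2000 bases. Circles lie on SESN2 and DDIT4, squares on RRAGC and RRAGD, and the triangle on MTOR; a match is a run of letters, not a measured binding site.

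The Rag GTPases RRAGC and RRAGD, partners of RRAGA or RRAGB in the dimer that recruits mTORC1, differed little from the control. RRAGC (ENSG00000116954) lies at chr1:39303870-39325444 and RRAGD (ENSG00000025039) at chr6:90074335-90121992. RRAGC had 11 and 9.53 CPM in untreated cells, 10.2 and 11.2 after GPNA, and 11.5 and 9.89 after BenSer. The 3 groups overlapped, with folds of 1.04 (0.920 to 1.18) and 1.04 (0.926 to 1.17). RRAGD had 0.341 to 0.564 CPM in any library and 21, 22 and 29 reads per group, and its folds of 0.947 (0.496 to 1.81) and 0.998 (0.549 to 1.84) leave room for changes within those bounds, which were not detectable at this depth. A same-strand noncoding RNA, ENSG00000273637, covers 23.1% of the exonic bases of RRAGC, so reads there may belong to either gene.

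These genes are known targets of TFEB and TFE3, which bind CACGTG, and both held that motif upstream. The other 6 genes searched did not. Among all windows of 2000 bases 25.4% did, near the share among the genes searched. The match of RRAGC begins 112 bases before the start, within ENSG00000273637, and also lies in its RefSeq window, while 7.26% of all RefSeq windows held the motif. The match of RRAGD begins 284 bases before the start. Both genes are on the minus strand, and the stretches read 5′ to 3′ on that strand, from chr1:39325526-39325581 and chr6:90122246-90122301, with CACGTG in capitals.
RRAGC: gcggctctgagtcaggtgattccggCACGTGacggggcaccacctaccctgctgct
RRAGD: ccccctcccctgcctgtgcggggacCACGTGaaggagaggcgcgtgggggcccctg
The FOXO motif GTAAACA was in the MTOR window alone, 1187 bases before the start, and in 22% of all windows, and none of the 7 RefSeq windows held it, beside 3.42% of all.

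DEPTOR (ENSG00000155792, chr8:120885957-121063157, plus strand), the inhibitory subunit of both mTOR complexes, was above the control with BenSer by less than 1.5-fold. Its libraries had 2.63 and 2.60 CPM in untreated cells, 3.02 and 2.95 after GPNA, and 3.76 and 3.19 after BenSer. The groups did not overlap, but the GPNA libraries of RRAGD were also apart from its controls, on 22 and 21 reads. The fold of DEPTOR was 1.33 with BenSer (1.06 to 1.67) and 1.14 with GPNA (0.894 to 1.46), an interval that includes 1. DEPTOR-AS1 lies opposite 252 of its exonic bases. Of the reads of DEPTOR and MTOR together, DEPTOR took 2.51% in the control (2.09 to 3.0), 3.08% with GPNA (2.62 to 3.6) and 3.52% with BenSer (3.08 to 4.0), and the BenSer interval alone was clear of that of the control.

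The 4E-BP repressors, EIF4EBP1 (ENSG00000187840, chr8:37888052-37917883) and EIF4EBP2 (ENSG00000148730, chr10:72163901-72188374), both on the plus strand, parted. EIF4EBP1 had 45.8 and 46.4 CPM in untreated cells, 50.5 and 49.2 after GPNA, and 54.5 and 56.3 after BenSer, without overlap between groups. Its excess was 1.08-fold with GPNA (1.02 to 1.15) and 1.20-fold with BenSer (1.14 to 1.27), small and precise at over 2000 reads per group. EIF4EBP2 had 95.6 and 96.4 CPM in the control and 93.8 to 94.9 in the 4 treated libraries. Its folds of 0.985 (0.945 to 1.03) and 0.983 (0.946 to 1.02) both include 1.

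The share of EIF4EBP1 among the reads of both repressors was 32.4% in the control (31.3 to 33.6), 34.5% with GPNA (33.5 to 35.6) and 37.0% with BenSer (36.0 to 38.0). The BenSer interval was clear of both others. The control and GPNA intervals overlapped slightly.

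**Figure D4:**
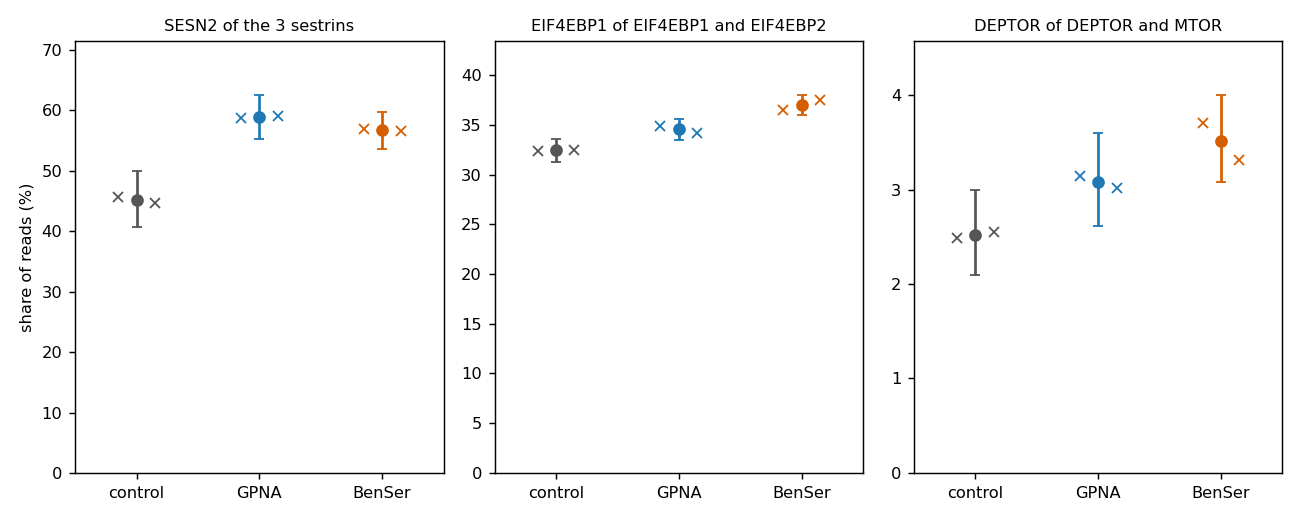
Share of reads in percent (y axis, starting at 0) taken by SESN2 among the 3 sestrins, by EIF4EBP1 among EIF4EBP1 and EIF4EBP2, and by DEPTOR among DEPTOR and MTOR, for each group; dots are merged libraries with exact binomial 95% intervals and crosses are single libraries. SESN2 goes from 45.3% in the control to 59% with GPNA and 56.8% with BenSer.

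MTOR itself (ENSG00000198793, chr1:11166592-11322613, minus strand) was slightly below the control with both compounds. It had 103 and 99.5 CPM in untreated cells, 93.0 and 94.8 after GPNA, and 97.7 and 93.2 after BenSer. Every treated library was below both controls. The same held for EIF4EBP2, whose folds include 1, and the share of all genes separated in this way was not counted. The fold of MTOR was 0.927 with GPNA (0.890 to 0.965) and 0.942 with BenSer (0.907 to 0.979). These differences of -0.11 and -0.09 on the log2 scale stood beside medians of -0.05 in both comparisons over genes with at least 5 CPM. With TMM scaling they shrank to -0.07 with GPNA and -0.04 with BenSer. MTOR-AS1 and ANGPTL7 lie opposite 220 and 151 of its exonic bases.

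Set against each other directly, at doses that differed 10 mM to 1 mM, BenSer and GPNA gave no member a difference of 1.5-fold, where 1.05% of 19056 genes were higher and 0.813% lower with BenSer, 1.87% in either direction. DDIT4 was 1.43-fold higher with BenSer (1.21 to 1.69, log2 0.44) and EIF4EBP1 1.11-fold higher (1.06 to 1.17). These were the 2 members with a counting interval above 0, as 21.2% of all genes had. For SESN2 the ratio was 1.06 (0.934 to 1.20), an interval that leaves room for a 1.20-fold excess. The other 7 members had ratios of 0.998 to 1.17, all with intervals that include 1. As the doses differ, these values do not rank the compounds.

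The rest of the mTORC1 pathway stayed inside 1.5-fold on the log2(CPM + 1) scale. Of 54 further genes listed by role, 51 were in the tables, and of the 50 tested with GPNA and 51 with BenSer none reached 1.5-fold on that scale in either direction. GPNA gave them a median log2 difference of -0.05 and BenSer of -0.04. Counting intervals lay above 0 for 7 genes and below 0 for 11 with GPNA, and for 13 and 13 with BenSer. These are 14% and 22% of the genes tested with GPNA and 25.5% in each direction with BenSer, near the shares of all genes (9.78% and 20.1%, and 18.2% and 25.8%). CASTOR1, the arginine sensor, had too few reads to be tested with GPNA. The scale hides larger ratios of mean CPM among genes below 1 CPM, which were 1.93 for CASTOR1 with BenSer (6 reads in the control, 16 with BenSer) and 0.550 for CASTOR2 with GPNA (28 and 17 reads).

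By role, the largest differences with BenSer, all short of 1.5-fold, are given with counting intervals clear of 0 unless stated. In the relay that sestrins act on, the GATOR2 subunits SEH1L and SEC13 were below the control (log2 -0.43 and -0.30). Of 5 GATOR2 genes, 3 had intervals below 0, where 25.8% of all genes did. In GATOR1 and its KICSTOR anchor, DEPDC5 (-0.23) and ITFG2 (-0.29) were below it, while NPRL3 (-0.13) had an interval across 0. Among the other sensors, BMT2, the S-adenosylmethionine sensor SAMTOR, was above the control (0.33) and the leucyl-tRNA synthetase LARS below it (-0.17).

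Among the Rag, Ragulator and folliculin genes, 3 of 10 had BenSer intervals above 0 and 1 below, beside 18.2% and 25.8% of all genes. Highest were RRAGB, a partner of RRAGC and RRAGD (0.45 on the log2 scale with BenSer), and the Ragulator subunit LAMTOR4 (0.31). TSC1 and TSC2, through which DDIT4 acts, stood at 0.38 and 0.25. In the mTOR complexes, RICTOR of mTORC2 stood at 0.24 and the shared subunit MLST8 at -0.21. Of 13 substrates and effectors, 4 had intervals above 0 and 4 below (30.8% each), to be read beside the same shares of all genes. GRB10, an adaptor that mTORC1 phosphorylates, stood at 0.43 and the autophagy kinase ULK1 at 0.40. With GPNA, 6 of these genes had intervals clear of 0: DEPDC5 (-0.34), MLST8 (-0.19), ULK1 (0.17), RICTOR (0.16), LARS (0.14, opposite in sign to BenSer) and SEC13 (-0.09). The others named had GPNA intervals across 0, from -0.20 for BMT2 to 0.13 for RRAGB.

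**Figure D5:**
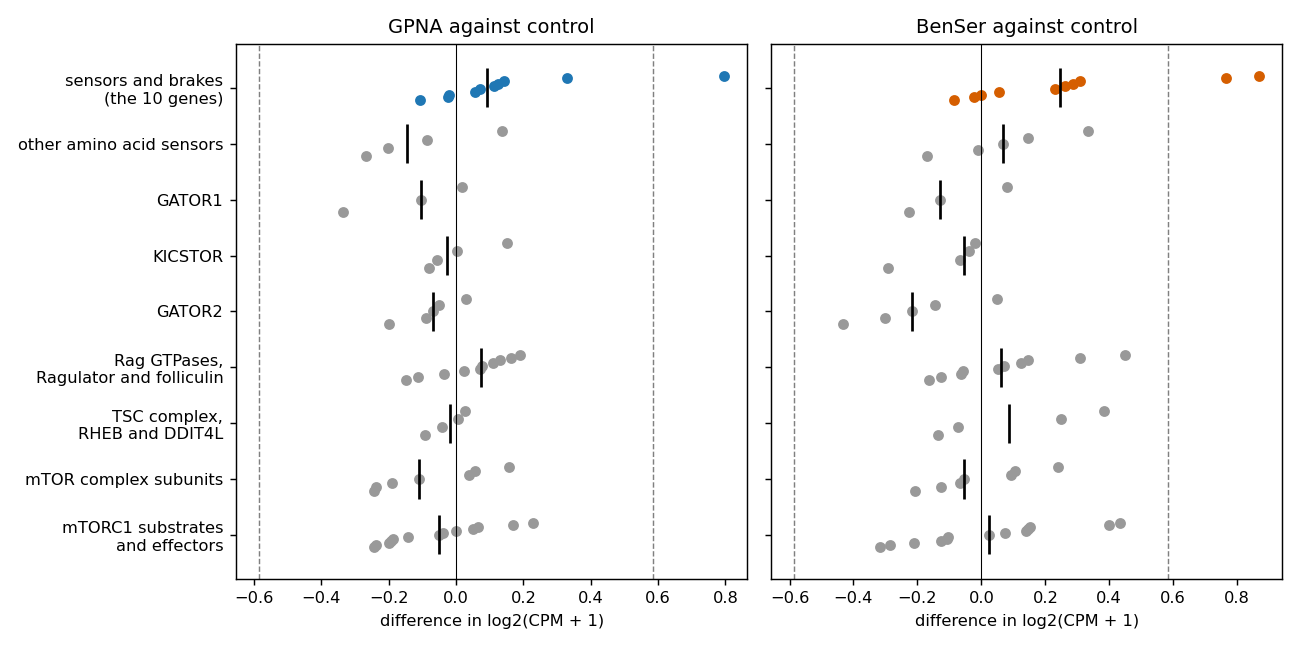
Difference in log2(CPM + 1) from the control (x axis) for the 10 genes (coloured) and the other pathway genes by role (grey), with GPNA on the left and BenSer on the right; short bars are medians and dashed lines mark 1.5-fold. The points past a dashed line are SESN2 with GPNA, and SESN2 and DDIT4 with BenSer; the other genes (50 with GPNA, 51 with BenSer) lie inside.

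Targets of the factors named above were listed for context, to be read beside the 0.34% of all genes with GPNA and 1.96% with BenSer that were at least 1.5-fold higher. Of 13 genes of ATF4 and its targets, 4 were at least 1.5-fold higher with GPNA and 7 with BenSer (median log2 difference 0.35 and 0.70). Among these, CHAC1, which degrades glutathione, differed by 0.83 with GPNA and 1.33 with BenSer, the stress factor NUPR1 by 0.64 and 1.27, and ATF5 by -0.37 and -0.17.

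Of targets of folliculin and TFE3, 0 of 11 were at least 1.5-fold higher with GPNA and 3 of 12 with BenSer, with WIPI1 (0.75) and SQSTM1 (0.65) highest and FNIP2 (-0.13) lowest with BenSer. With GPNA, WIPI1 stood just short of 1.5-fold on the log2(CPM + 1) scale, at 0.58, although its ratio of mean CPM was 1.55 (1.37 to 1.76). Of FOXO targets, which include SESN3, 0 of 12 were with GPNA and 2 of 12 with BenSer, with TXNIP (1.29) and CCNG2 (0.83) highest and KLF6 (-0.36) lowest with BenSer. CCNG2 stood at 0.56 with GPNA, also just short on that scale, with a ratio of mean CPM of 1.51 (1.37 to 1.65). No gene of these 3 lists was at least 1.5-fold lower with either compound.

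The genes most like SESN2 and DDIT4 were found by the distance between their pairs of log2 differences, among 9627 genes with at least 5 CPM in each of the 3 groups. Nearest to SESN2 were DNAJB9, a chaperone cofactor of the endoplasmic reticulum (distance 0.07), HPGD, which degrades prostaglandins (0.18), and the stress factor DDIT3 (0.22). Nearest to DDIT4 were SCARA5, a ferritin receptor (0.02), CALCOCO1, an autophagy receptor (0.02), and FBXO32, a ubiquitin ligase subunit (0.04). Of these, DNAJB9 differed from the control by 0.79 with GPNA and 0.80 with BenSer. Both differences of a gene share the control libraries. SESN2 and DDIT4 themselves were below 5 CPM in the control (4.53 and 3.35), where the scale understates a change. The distances are also smaller than the counting intervals are wide, such as 0.09 to 0.57 for DDIT4 with GPNA. The order of the nearest genes is thus not resolved.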

How the data were processed

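The deposited tables give, per the labels and the study's methods, reads of total RNA (TruSeq Stranded) mapped by the authors with TopHat2 and Bowtie2 to hg19/GRCh37.p13 and counted with HTSeq 0.6.2p2; DESeq is also named. Although headed as counts, the deposited columns hold CPM, normalized by the authors to library size. Every value gave whole reads (within 0.001 of a whole number), from which reads and library totals were rebuilt; 51.6 to 52.7% of each total lay on listed genes. Columns without a matching sample label (8 in 2 tables, 6 distinct) and the authors' fold changes and p-values were not used, although they were seen when the tables were opened.

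Groups came from the treatment labels and doses from the study's text. Library numbers were not taken as pairs: same-numbered libraries of different groups showed deviations from their group means that correlated at 0.02 to 0.04 over 9485 genes. Differences used a pseudocount of 1 CPM and genes averaging 5 or more reads per library in at least 1 of the groups compared. Alternatives used limma 3.58.1, edgeR 4.0.16 (quasi-likelihood) and DESeq2 1.42.0 in R 4.3.3, with Benjamini-Hochberg adjustment and libraries as replicates. Scripts were tested on simulated counts. Gene positions came from GENCODE on GRCh37; no protein sequences were used here.

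Members, gene lists, tests and motifs were chosen with earlier results of these data known. Named were all members; per pathway role, genes at least 1.5-fold from control or else the 2 largest absolute BenSer differences at 5 CPM or more; per context list the 2 largest and the smallest BenSer difference; and the 3 nearest genes of each member past 1.5-fold. A few genes and a gene list that these rules would name are not reported here.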

Additional observations from a re-analysis of the deposited data

How the results depend on the processing

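Over 15 alternatives, 444 of 447 values of single members stayed within the counting interval of the main value, 3 moved, and no value past 1.5-fold changed sign. Some of these outcomes were fixed in advance. Having no minimum of reads, or one of 50, cannot alter the value of a member that is kept. The limma fits with and without a replicate block gave equal differences. The tallies here include all of these. SESN2 passed 1.5-fold in 12 of 15 alternatives with GPNA and 14 of 15 with BenSer, and DDIT4 in 14 of 15 with BenSer. With a pseudocount of 5 CPM, SESN2 fell to 0.51 with GPNA and 0.57 with BenSer and DDIT4 to 0.45, so that 0 members passed in either comparison with control; this follows from the scale itself, since all are below 10 CPM. With 1 library left out at a time, SESN2 ranged from 0.69 to 0.90 with GPNA and 0.79 to 0.96 with BenSer, and DDIT4 from 0.69 to 0.84 with BenSer. With the threshold lowered to 0.32 on the log2 scale, 2 members passed with GPNA and 1 between BenSer and GPNA.

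Libraries taken as replicates measure mostly technical spread. limma without the replicate block then left 0 members and 2 genes with GPNA at an adjusted p under 0.05 and 1.5-fold, although 78 passed both 1.5-fold and an unadjusted p under 0.05. With the replicate block it left 0 members and 0 genes with GPNA and 0 genes between BenSer and GPNA (78 and 354 at an unadjusted p), and it changed no other call on members past 1.5-fold. At an adjusted p under 0.05 alone, the block also lost SESN3 and EIF4EBP1 with BenSer, and DDIT4 between the compounds. edgeR kept SESN2 with GPNA, and SESN2 and DDIT4 with BenSer, as did DESeq2.

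Counts over all genes also depended on the settings. With GPNA (76 genes) they were 319 with edgeR, 1054 at the lower threshold, 1531 and 31 at pseudocounts of 0.1 and 5, and 227 with totals of listed genes. With BenSer (671) they were 1489, 3357, 2602 and 273 for edgeR, the lower threshold and the 2 pseudocounts. Between BenSer and GPNA (356) they were 1140, 2657, 2173, 117 and, with totals of listed genes, 641. For the other pathway genes, none of which passed, the lower threshold gave 1, 6 and 9, and a pseudocount of 0.1 gave 1, 1 and 2, with GPNA, with BenSer and between the compounds. Between the compounds DESeq2 gave 1 and edgeR 2, and leaving out 1 library at a time gave 0 to 1, with 1 without GPNA library 1. The causes of these shifts were not tested.

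Depth limits RRAGD most, and with the labelled columns of a group counted as 1 sample no difference has a replicate check here.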
